A study of Mus musculus with 12 samples.

Results

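The 40 genes described here encode the machinery of the cell division cycle and of DNA replication, and their transcripts were followed in whole livers of septic mice. They are the rows of a count table of 25611 genes whose symbol is on a list of 40, and all 40 were found, on 1 row each. By role they comprise 4 regulators of G1 and of the passage from G1 into S phase (Ccnd1, Ccne1, Ccne2 and E2f1), 13 genes of DNA replication (Cdc6, Cdt1, the 6 genes Mcm2 to Mcm7, Pcna, Rrm1, Rrm2, Tyms and Tk1) and 23 genes of G2 and mitosis. RNA was sequenced from whole livers of male C57BL6J mice aged 8 to 10 weeks, 4 mice in each of 3 groups. Sham mice received an abdominal incision without injury to the cecum. CLP mice received cecal ligation and puncture, in which gut bacteria leak into the abdomen and cause sepsis. CLP+DCA mice received CLP and, 24 hr post-surgery, dichloroacetate (DCA, 25 mg/kg), an inhibitor of the pyruvate dehydrogenase kinases. The labels say that mice were injected with their respective drugs, and the injection that sham and CLP mice received is not given in the sources used here. Subcutaneous saline was given to every mouse, and all livers were taken 30 hr post-surgery, 6 hr after the injection.

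A cell that divides first builds cyclin D with its kinase, which frees E2F factors to switch on cyclin E and the genes of DNA synthesis. Origins are then licensed by Cdc6 and Cdt1, which load the ring of MCM proteins, the replicative helicase, while Pcna clamps the polymerases to DNA and Rrm1, Rrm2, Tyms and Tk1 supply deoxynucleotides. Genes of G2 and mitosis follow later, with cyclins A and B and Cdk1 driving entry into mitosis, and Aurka, Aurkb, Plk1, kinesins and the checkpoint kinases working on the spindle. Hepatocytes of an adult liver are mostly quiescent and can re-enter the cycle after loss of tissue, and immune and sinusoidal cells of the liver can divide too. In bulk RNA, fewer cycling cells and less RNA per cycling cell cannot be told apart.

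The 2 programs differ in their promoters. The letters searched, on both strands, were an E2F motif (TTTCCCGC, TTTCGCGC, TTTGCCGC or TTTGGCGC), the cell cycle homology region CHR (TTTGAA or TTCGAA), an element bound by the DREAM and MuvB complexes, and the CCAAT box (CCAAT), bound by NF-Y. In RefSeq promoters of mouse build GRCm38.p6, each a stretch of 300 bases that lies mostly before an annotated start, 13 promoters of 12 replication genes and 20 promoters of 19 genes of G2 and mitosis could be read. The E2F motif was in 6 of the 13 replication promoters (46.2%), those of Cdc6, Cdt1, Mcm3, Mcm5, Mcm6 and Mcm7, and in 1 of the 20 mitotic promoters (5%), that of Cdk1. CHR and CCAAT stood together in 16 of the 20 mitotic promoters (80%) and in 2 of the 13 replication promoters (15.4%). Among all 32851 promoters, 2.27% held the E2F motif, 19.2% CHR, 37.4% CCAAT, and 7.53% both CHR and CCAAT. Neither promoter of the G1 and G1/S regulators that could be read, those of Ccne1 and E2f1, held any of the 3. A match of letters is a description and not evidence of binding. For 7 members, Ccnd1, Ccne2, Mcm4, Ccna2, Kif20a, Tpx2 and Aurkb, no promoter was used.

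The 200 bases before the start are shown for 2 replication genes with the E2F motif and 3 mitotic genes with CHR and CCAAT, since they carry the contrast between the programs. Capitals mark the matches. The E2F matches of Mcm5, and the first 2 of Mcm6, overlap as readings of both strands of 1 stretch. The windows, from RefSeq on GRCm38.p6, are chr8:75109309-75109508 on the plus strand (Mcm5), chr1:128359706-128359905 on the minus strand (Mcm6), chr7:135716380-135716579 on the minus strand (Mki67), chr11:99024190-99024389 on the minus strand (Top2a) and chr19:37376182-37376381 on the plus strand (Kif11), each written 5′ to 3′ on the strand of the gene.
Mcm5: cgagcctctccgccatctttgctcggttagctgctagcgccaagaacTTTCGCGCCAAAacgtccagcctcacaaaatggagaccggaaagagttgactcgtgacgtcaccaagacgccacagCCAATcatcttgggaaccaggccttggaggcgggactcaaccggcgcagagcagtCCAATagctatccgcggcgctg
Mcm6: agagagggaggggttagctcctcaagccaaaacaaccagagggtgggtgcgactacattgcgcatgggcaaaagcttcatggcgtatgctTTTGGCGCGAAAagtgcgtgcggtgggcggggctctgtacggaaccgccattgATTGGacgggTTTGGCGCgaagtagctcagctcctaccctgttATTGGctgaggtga
Mki67: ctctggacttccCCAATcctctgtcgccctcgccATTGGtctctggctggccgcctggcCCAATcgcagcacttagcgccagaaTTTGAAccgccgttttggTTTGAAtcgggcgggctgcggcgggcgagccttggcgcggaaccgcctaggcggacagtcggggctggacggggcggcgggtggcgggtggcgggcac
Top2a: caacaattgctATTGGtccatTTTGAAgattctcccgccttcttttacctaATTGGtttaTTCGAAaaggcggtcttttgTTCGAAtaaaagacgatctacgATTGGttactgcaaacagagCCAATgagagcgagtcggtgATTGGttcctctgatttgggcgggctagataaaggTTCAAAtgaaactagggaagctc
Kif11: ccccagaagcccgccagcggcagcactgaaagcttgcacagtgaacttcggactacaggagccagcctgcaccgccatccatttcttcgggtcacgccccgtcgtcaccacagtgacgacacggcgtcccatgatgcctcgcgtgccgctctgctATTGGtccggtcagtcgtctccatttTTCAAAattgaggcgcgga

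Transcripts of the 40 genes were scarce in all 12 livers. Each library held 24436513 to 44266819 reads on genes, of which the 40 genes took 1280 to 4520, or 0.00524% to 0.0132%. Values are given in CPM (read counts scaled to the size of the library) after TMM normalization, which corrects for differences in RNA composition. A filter on low counts (edgeR's filterByExpr, minimum count 10) left 13190 genes for testing, with 30 of the 40 among them, namely the 4 G1 and G1/S regulators, 12 replication genes and 14 genes of G2 and mitosis. Compared per kilobase of exon, Pcna was the most abundant of the 40 in sham livers, at 7.30 ± 0.379 CPM per kb (mean ± SD, n = 4), followed by Tk1 at 5.64 ± 0.522 and Ccnd1 at 2.49 ± 1.12. The values of Mcm7 (2.23 ± 0.0950) and Ccnd1 lay within their spread, and Aurka, at 1.09 ± 0.0796 CPM per kb, was the most abundant mitotic gene. Mki67, the gene of the proliferation marker Ki-67, stood at 0.0746 ± 0.0384 CPM per kb.

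Some livers stood apart from the rest of their group. Over all genes, chi-square per degree of freedom between mice of a group was 24.8 to 74.6 in sham. In CLP+DCA it was 25.6 to 68.1 among replicates 1, 2 and 4 and 490.1 to 682.1 between these and replicate 3. In CLP it was 32.9 between replicates 2 and 4, 75.8 between replicates 1 and 3, and 126.2 to 311.5 across these pairs. Summed CPM of 13 neutrophil markers was 433 to 485 in sham, 3516 to 13535 in CLP and 929 to 9633 in CLP+DCA. Most of it came from Lcn2, which inflamed hepatocytes express too, and the granule gene Mpo had 0 to 4 reads per mouse. Of the 11 neutrophil markers that passed the filter, 10 were higher and 1 lower in CLP than in sham. Their median log2 fold change was 2.84, beside 0.02 over all genes. For 9 of the 11, all CLP values lay above all sham values (background 12.2%). Markers of hepatocytes, of which Alb had at least 320064 reads in every mouse, summed to 72831 to 93210 CPM in sham, 37050 to 54365 in CLP and 33728 to 68586 in CLP+DCA, and 10 lymphocyte markers to 2.45 to 4.59, 0.718 to 2.15 and 1.30 to 3.70 CPM. Markers of erythroid precursors, cells that divide, summed to 110 to 124 CPM in sham, 79.9 to 88.8 CPM in CLP and 93.4 to 118 CPM in CLP+DCA, most of it from Alas2 and Tfrc, while the defining genes Hemgn and Rhag had 0 to 2 reads per mouse and Hba-a1 and Hbb-bt had 0. Cholangiocyte markers summed to 34.4 to 43.8 CPM in sham, 62.1 to 96.3 CPM in CLP and 38.4 to 213 CPM in CLP+DCA. The part of these differences in the results below was not tested.

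In septic livers, replication transcripts lay below sham, by less than a log2 unit for most genes. Of the 12 replication genes that passed the filter, 11 had a lower mean in CLP than in sham and Mcm7 a higher one, with a median log2 fold change of -0.33 beside 0.02 over all 13190 genes. Of the 14 genes of G2 and mitosis, 6 were higher and 8 lower, with a median of -0.15, and the difference between the 2 programs was not tested. Without CLP replicate 3, 1 of 15 mitotic genes was higher and 14 were lower, with a median of -0.37, and the median was -0.03 without CLP replicate 2 and -0.24 without replicate 4. The 4 G1 and G1/S regulators split, with Ccnd1 and E2f1 lower and Ccne1 and Ccne2 higher. With scaling by library size alone, which puts the median of all genes at -0.15, all 12 replication genes and 10 of the 14 mitotic genes were lower, with medians of -0.47 and -0.29.

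No single member passed the test in CLP versus sham. At a Benjamini-Hochberg FDR of 0.05 in edgeR's quasi-likelihood test on all 12 mice, 0 of the 30 were called, where 2.78% of all genes were. Without adjustment, 0 of the 30 were higher and 6 lower at p under 0.05 (Pcna, Ccnd1, Tyms, Tk1, Cdt1 and Nusap1), beside 15.5% of all genes higher and 13.1% lower. Mouse by mouse, the 4 CLP values lay above all 4 sham values for 1 of the 30 (Ccne1, background 12.2%) and below them for 5 (Pcna, Ccnd1, Tyms, Tk1 and Nusap1, background 14.2%). Other fits made calls: DESeq2 on all 12 mice called 2 members (Ccnd1 and Pcna) among 1894 genes (13% of those it tested), DESeq2 on the 8 mice compared called 5 among 3428 (23.3%), and limma's voom with sample quality weights called 6 among 3417 (25.9%). CLP+DCA replicate 3 is outside this comparison but shares its estimate of spread, and without it edgeR called 5 members, all lower (Ccnd1, Nusap1, Pcna, Tk1 and Tyms), among 3157 genes, or 23.8% of those tested. The 6 lower at unadjusted p under 0.05 became 3 without CLP replicate 2 or 4 or any 1 of sham replicates 1, 2 and 3. These were 9.68% to 10% of the members tested, near the 8.87% to 10.6% of all genes that were lower in these fits. Without CLP replicate 3 they became 9 of 31, where 15.1% of all genes were lower. The replication median was -0.24 without CLP replicate 2, -0.27 without replicate 4 and -0.46 without replicate 3.

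**Figure D1:**
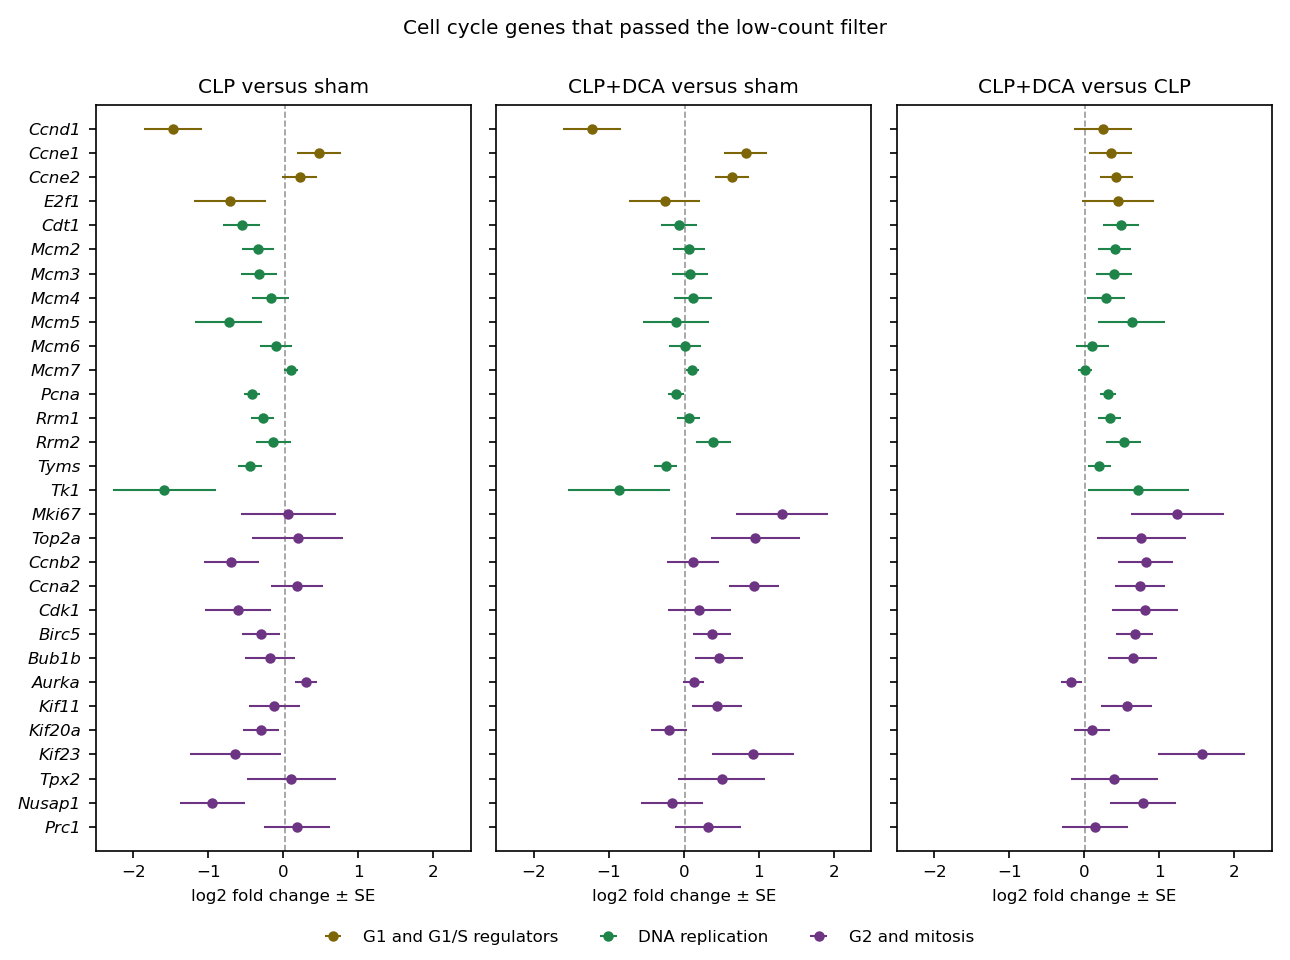
Log2 fold change (x axis) with its standard error for the 30 cell cycle genes that passed the low-count filter (y axis, colored by role), in 3 comparisons of 4 mice against 4; the dashed line is the median of all 13190 genes. Replication genes lie left of the line in CLP versus sham for 11 of 12, and 29 of the 30 lie right of 0 in CLP+DCA versus CLP, but none of the 30 passed an FDR of 0.05.

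Among the G1 regulators, Ccnd1 (cyclin D1, NCBI Gene 12443, chr7:144929931-144939925) had the largest difference in septic livers. It had 12.1, 6.31, 9.62 and 18.8 CPM in sham, 5.71, 3.69, 4.09 and 3.32 CPM in CLP, and 6.13, 6.05, 1.92 and 6.04 CPM in CLP+DCA, in order of replicate number. All 8 septic livers lay below all 4 sham livers, sham spanned the widest range, and CLP+DCA replicate 3 was the lowest of the 12. The log2 fold change was -1.47 in CLP versus sham (SE 0.39, adjusted p = 0.0622) and -1.22 in CLP+DCA versus sham (SE 0.39, adjusted p = 0.288). On its annotated exons, 23.4% of the bases also belong to a gene on the other strand (LTO1), and the library kit does not mark strand.

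The E cyclins, which activate Cdk2 at the start of S phase, were on the other side of sham. Ccne1 had 1.79, 1.68, 1.39 and 1.75 CPM in sham, 2.14, 3.06, 1.84 and 2.20 CPM in CLP, and 1.88, 2.89, 4.90 and 2.0 CPM in CLP+DCA. Every septic liver exceeded every sham liver, with the highest value in CLP+DCA replicate 3. The log2 fold changes were 0.47 in CLP (SE 0.29, adjusted p = 0.292) and 0.82 in CLP+DCA (SE 0.29, adjusted p = 0.309), each against sham. Ccne2 had 0.380 to 0.632 CPM in sham, 0.539 to 0.645 CPM in CLP, and 0.766, 0.605, 0.894 and 0.891 CPM in CLP+DCA, on 12 to 33 reads per mouse. Its groups overlapped, at log2 fold changes of 0.22 in CLP and 0.64 in CLP+DCA against sham (SE 0.23 and 0.22), and 17.4% of its exon bases are shared with Ints8.

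E2f1, the activator of the G1/S genes, was tight in sham and variable in sepsis. It had 3.87, 3.79, 3.67 and 3.67 CPM in sham, 2.70, 0.814, 3.84 and 1.66 CPM in CLP, and 4.5, 3.50, 0.840 and 3.75 CPM in CLP+DCA. The 3 lowest livers were CLP replicate 2, CLP+DCA replicate 3 and CLP replicate 4, and the other 5 septic livers lay between 2.70 and 4.5 CPM. The log2 fold change in CLP versus sham was -0.70 (SE 0.48, adjusted p = 0.331). In these 3 livers the TMM factor was 0.855, 0.918 and 0.867, against 0.981 to 1.08 in the other 9.

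Pcna and Tyms gave the firmest differences among replication genes. Pcna (NCBI Gene 18538, chr2:132249286-132253180) had 18.1, 16.4, 17.1 and 18.4 CPM in sham, 12, 11.3, 16.1 and 13.2 CPM in CLP, and 16.3, 15.8, 15.6 and 17.5 CPM in CLP+DCA, on 236 to 674 reads per mouse. All CLP livers lay below all sham livers, CLP replicate 3 by the least, and CLP+DCA overlapped both groups. The log2 fold change in CLP versus sham was -0.41 (SE 0.11, adjusted p = 0.0580).

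Tyms, the thymidylate synthase, had 4.84, 5.27, 5.0 and 4.62 CPM in sham, 3.62, 3.16, 4.11 and 3.59 CPM in CLP, and 4.31, 4.60, 2.95 and 4.84 CPM in CLP+DCA. Here too CLP did not overlap sham, and CLP+DCA replicate 3 was the lowest of all. In CLP versus sham it was at -0.44 on the log2 scale (SE 0.16, adjusted p = 0.101).

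The genes of the MCM helicase differed among themselves. Mcm7, the most abundant per kilobase, had 9.40 to 10.4 CPM in sham, 9.91 to 11.5 CPM in CLP and 9.23 to 11.9 CPM in CLP+DCA, a log2 fold change of 0.10 in CLP versus sham (SE 0.09, adjusted p = 0.458). Mcm5 was at the other end, with 0.930 to 2.91 CPM in sham and 0.584 to 1.79 CPM in CLP, at a log2 fold change of -0.73 (SE 0.45, adjusted p = 0.291). Mcm2, Mcm3, Mcm4 and Mcm6 lay between, at -0.34, -0.32, -0.17 and -0.09. In each of the 6, CLP and sham overlapped, and their summed CPM was 25.2 ± 1.61 in sham livers, 23.2 ± 4.48 in CLP livers and 26.6 ± 2.56 with DCA (mean ± SD, n = 4 each). Cdt1, the licensing factor, was lower in CLP with overlap, at 1.78 to 2.63 CPM in sham against 0.910 to 1.89 CPM (log2 fold change -0.55, SE 0.24, adjusted p = 0.160). Rrm1 and Rrm2, the subunits of ribonucleotide reductase, were at -0.27 and -0.13 (SE 0.15 and 0.23).

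Tk1, the thymidine kinase of dividing cells, had the largest log2 fold change of the 30 in CLP versus sham and a wide spread in both septic groups. It had 31.1, 25.3, 30.6 and 30.4 CPM in sham, 14.2, 2.54, 17.2 and 4.58 CPM in CLP, and 24.1, 16.3, 1.65 and 22.6 CPM in CLP+DCA. Every septic liver lay below every sham liver, and the same 3 livers that were lowest for E2f1 were lowest here. The log2 fold change was -1.58 in CLP versus sham (SE 0.69, adjusted p = 0.157) and -0.86 in CLP+DCA versus sham (SE 0.67, adjusted p = 0.574).

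Tk1 shares its start region with a neighbour that is no cell cycle gene. Tk1 (minus strand, chr11:117815519-117826014) lies head to head with Afmid (plus strand, chr11:117825919-117839908), the arylformamidase of tryptophan breakdown. Their annotated exons share 83 bp, or 1.6% of the exon bases of Tk1. Afmid had 95.7 to 121 CPM in sham, 76.6, 14.8, 84.6 and 28.3 CPM in CLP, and 109, 72.3, 5.20 and 100.5 CPM in CLP+DCA, with a log2 fold change of -1.10 in CLP versus sham (SE 0.72, adjusted p = 0.312). CLP replicates 2 and 4 and CLP+DCA replicate 3 were the lowest livers for both genes. Reads on Tk1 amounted to 25.3% to 29.7% of those on Afmid in sham and 16.2% to 20.4% in CLP, without overlap. In CLP+DCA they amounted to 22.1%, 22.5%, 31.8% and 22.5%, in order of replicate number. Since the kit does not mark strand, the share of Tk1 reads that belongs to Afmid was not tested. For this reason the sum over replication genes is given below with and without Tk1. Mitotic genes that share more of their exon bases, up to 29.3% in Kif20a, were kept in the mitotic sum.

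**Figure D2:**
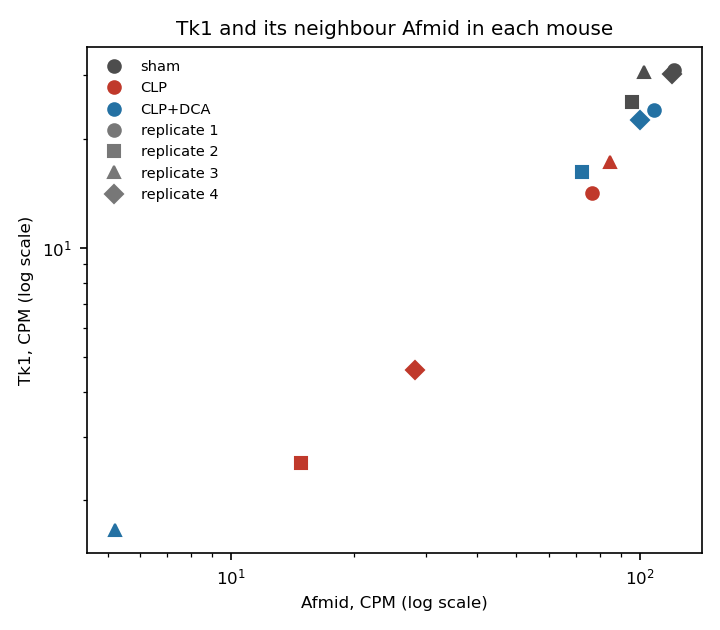
CPM of Tk1 (y axis) against CPM of the neighbouring gene Afmid (x axis), both on log scales; each point is 1 mouse, with color for group and shape for replicate. The 4 sham livers sit at the upper right at 25.3 to 31.1 CPM of Tk1, and CLP replicates 2 and 4 and CLP+DCA replicate 3 sit at the lower left at 1.65 to 4.58 CPM.

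Among the 14 genes of G2 and mitosis that passed the filter, only Nusap1 had CLP and sham values that did not overlap. Nusap1, which bundles spindle microtubules, had 0.818, 0.693, 0.665 and 0.793 CPM in sham, 0.461, 0.287, 0.435 and 0.314 CPM in CLP, and 0.511, 1.18, 0.190 and 0.795 CPM in CLP+DCA. Its CLP values lay below sham, and CLP+DCA spanned from the lowest to the highest of the 12 livers. The log2 fold change in CLP versus sham was -0.94 (SE 0.43, adjusted p = 0.175), on 6 to 35 reads per mouse.

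Aurka, the kinase of the spindle poles, was at higher means in CLP than in sham. It had 2.49, 2.75, 2.98 and 2.82 CPM in sham, 3.41, 2.87, 3.26 and 4.09 CPM in CLP, and 3.29, 3.13, 2.65 and 3.02 CPM in CLP+DCA. The groups overlapped through CLP replicate 2, and the log2 fold change was 0.30 (SE 0.14, adjusted p = 0.177). Voom with sample quality weights called Aurka higher.

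Cdk1, the kinase of mitotic entry, had 0.893, 0.619, 0.728 and 0.821 CPM in sham, 0.369, 0.383, 0.919 and 0.269 CPM in CLP, and 0.798, 1.48, 0.379 and 0.891 CPM in CLP+DCA. In CLP, 3 livers lay below all sham livers and replicate 3 above them, for a log2 fold change of -0.60 (SE 0.44, adjusted p = 0.363). Mki67 had 1.30, 0.594, 0.696 and 0.410 CPM in sham, 0.576, 0.431, 1.40 and 0.629 CPM in CLP, and 1.82, 3.83, 0.352 and 1.40 CPM in CLP+DCA. Sham and CLP covered nearly the same range (log2 fold change 0.07, SE 0.63, adjusted p = 0.949, and -0.06 when scaled by library size alone), while CLP+DCA held both the highest liver, replicate 2, and the lowest, replicate 3.

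Top2a, the topoisomerase that untangles sister chromosomes, had 0.446, 0.446, 1.01 and 0.492 CPM in sham, 0.645, 0.383, 1.14 and 0.494 CPM in CLP, and 1.31, 2.29, 0.190 and 0.891 CPM in CLP+DCA. As for Mki67, CLP+DCA replicate 2 was the highest liver and replicate 3 the lowest. Its log2 fold change in CLP versus sham was 0.19 (SE 0.61, adjusted p = 0.849).

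**Figure D3:**
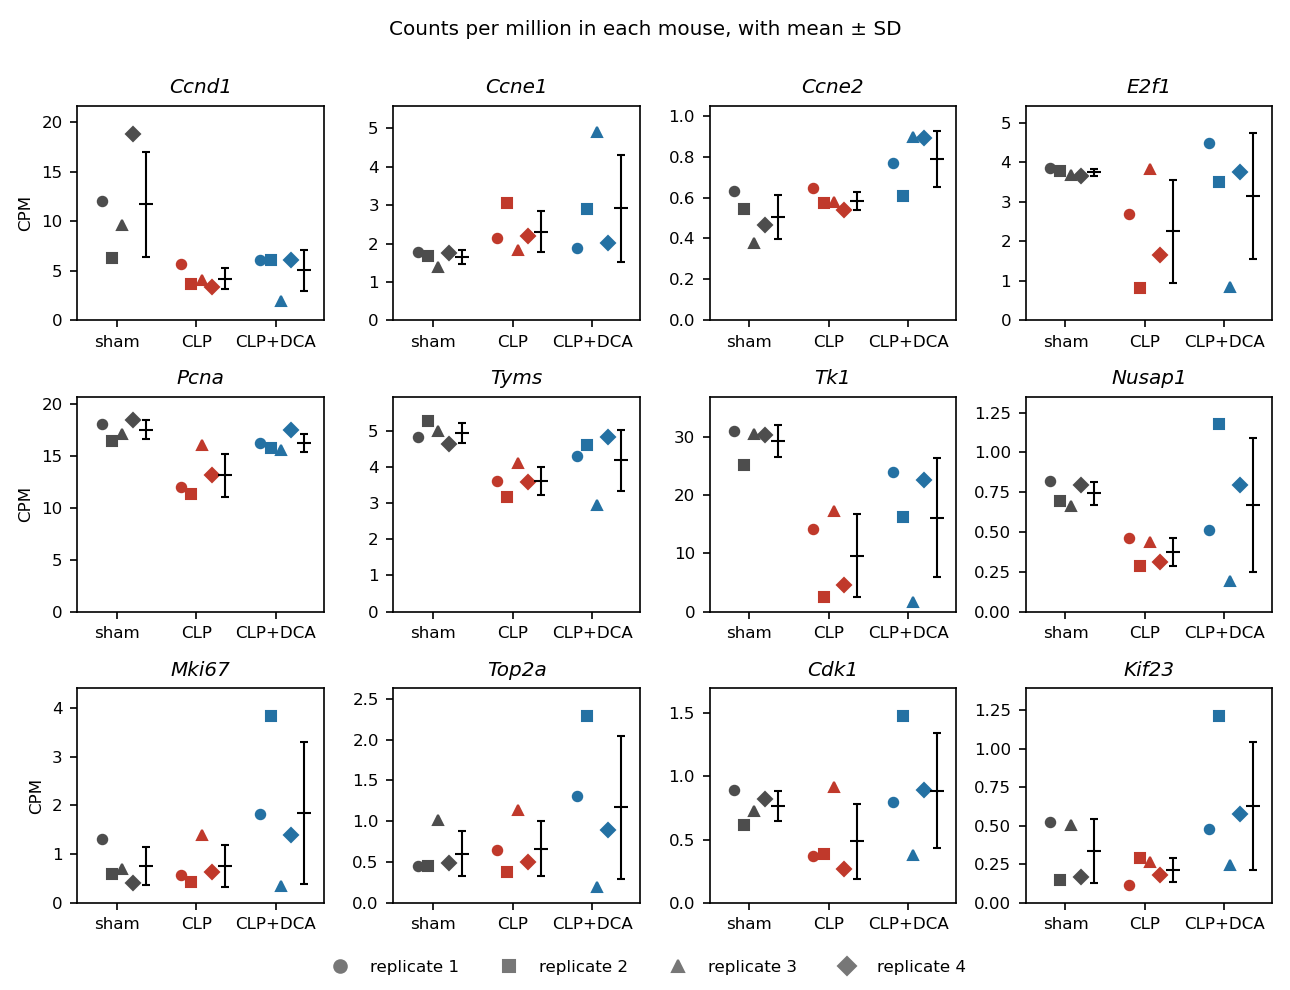
CPM (y axis, from 0) of 12 cell cycle genes in each mouse of the 3 groups (x axis); points are mice, with shape for replicate number, and black bars are mean ± SD of 4 mice. CLP lies below sham without overlap for Ccnd1, Pcna, Tyms, Tk1 and Nusap1, and CLP+DCA replicate 2 is the highest liver for Mki67, Top2a, Cdk1, Kif23 and Nusap1.

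Levels of the 2 programs were summed in each liver. The 12 replication genes without Tk1 summed to 61.2, 57.3, 59.5 and 56.9 CPM in sham, 48.6, 41.7, 60.1 and 45.7 CPM in CLP, and 61.6, 62.6, 52.1 and 60.0 CPM in CLP+DCA. In CLP, 3 of the 4 livers lay below all sham livers and replicate 3 inside their range, and CLP+DCA lay around the sham values apart from replicate 3. With Tk1, the sums of the 13 were 88.1 ± 4.14 CPM in sham livers, 58.6 ± 14.6 CPM in CLP livers and 75.2 ± 14.6 CPM in CLP+DCA (mean ± SD, n = 4 each), and all CLP livers were below all sham livers.

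The 23 genes of G2 and mitosis summed to 14.6, 11.6, 12.4 and 11.7 CPM in sham, 11.3, 8.90, 15.2 and 11.1 CPM in CLP, and 18.1, 26.0, 9.56 and 16.5 CPM in CLP+DCA. CLP straddled sham, whereas in CLP+DCA replicates 1, 2 and 4 exceeded every sham and CLP liver and replicate 3 lay below every sham liver. The mitotic sum amounted to 20.2% to 23.8% of the replication sum without Tk1 in sham, 21.4% to 25.3% in CLP, and 29.4%, 41.6%, 18.3% and 27.5% in CLP+DCA. Without Tk1, the ratio of the 2 programs thus covered much the same range in sham and CLP. In CLP+DCA it was above that range in 3 livers and below it in 1. This depended on leaving out Tk1. With Tk1 the replication sum was 82.6 to 92.2 CPM in sham and 44.2 to 77.3 CPM in CLP. The ratio to that sum was higher in every septic liver, CLP+DCA replicate 3 included, than in every sham liver. Gene by gene, CLP+DCA replicate 2 was the highest of the 12 livers for 17 of the 23 genes of G2 and mitosis and for 3 of the 13 replication genes, and the lowest for 0 of the 40. No test is given for these sums, since the genes were chosen with results of these data known.

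**Figure D4:**
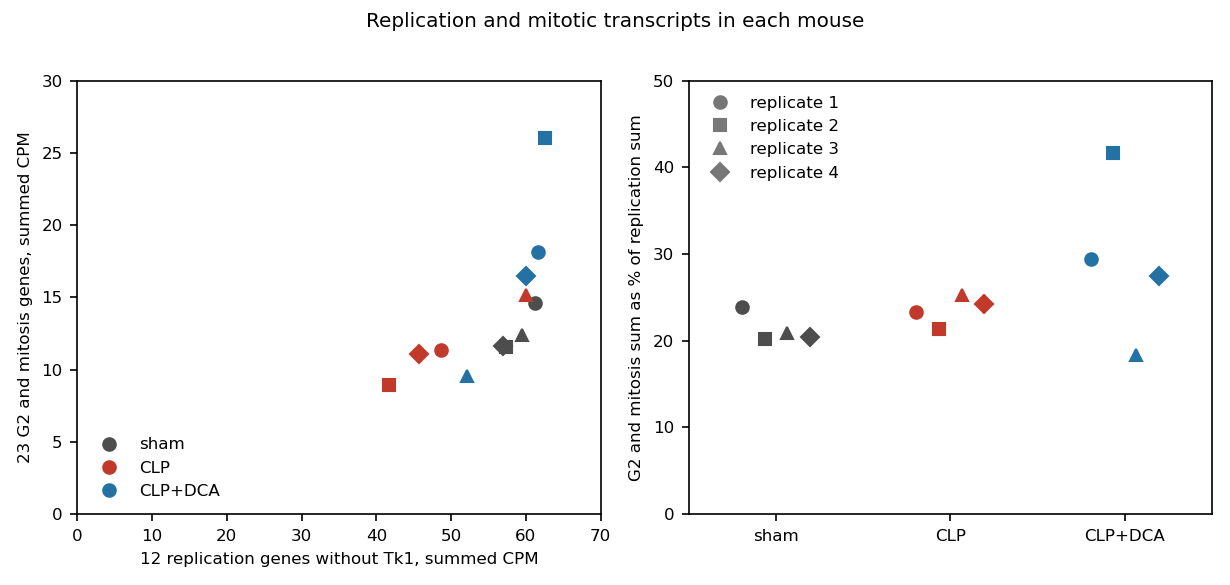
Left, summed CPM of the 23 genes of G2 and mitosis (y axis) against summed CPM of the 12 replication genes without Tk1 (x axis), 1 point per mouse, with color for group and shape for replicate. Right, the mitotic sum as a percentage of the replication sum without Tk1 in each mouse by group: sham and CLP lie between 20.2% and 25.3%, and CLP+DCA between 18.3% and 41.6%.

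Between the 2 septic groups, nearly all of the 30 genes had higher means with DCA. In CLP+DCA versus CLP, 29 were higher and 1, Aurka, was lower (log2 fold change -0.17, SE 0.14). The median log2 fold change was 0.37 over the 12 replication genes and 0.71 over the 14 genes of G2 and mitosis, beside 0.01 over all genes. At an FDR of 0.05 edgeR called 0 of the 30, where 0.00758% of all genes (1 gene) were called. DESeq2 on all 12 mice also called 0 (0.815% of all genes), and voom with sample quality weights called 5, all higher (Birc5, Ccna2, Mcm2, Pcna and Rrm1), where it called 9.76% of all genes. Without adjustment, 7 were higher and 0 lower at p under 0.05, beside 5.06% of all genes higher and 4.94% lower. The CLP+DCA livers lay above all CLP livers for 2 genes (Rrm2 and Ccnb2, background 2.32%) and below them for 0 (background 2.05%).

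These counts depended on which mice were in the fit. Leaving out 1 mouse at a time gave 1 to 14 genes higher at p under 0.05. The count was 1 of 31 without CLP replicate 1 (4.22% of all genes higher). It was 3 without CLP replicate 2 (3.55%), 12 without CLP replicate 3 (6.6%) and 3 without CLP+DCA replicate 2 (3.16%). Without CLP+DCA replicate 3 it was 14 of 31, where 13.7% of all genes were higher and 14.5% lower. Sham mice are outside this comparison but share its estimate of spread. The count was also 3 without sham replicate 1 (4.34%) or sham replicate 2 (4.32%). It was 5 without sham replicate 3 (4.55%) or sham replicate 4 (4.6%). In each of these fits no member was lower at p under 0.05. Without CLP+DCA replicate 2, the highest liver for several mitotic genes, 10 of the 14 genes of G2 and mitosis were higher and 4 lower, with a median of 0.46. Without CLP+DCA replicate 3 the mitotic median was 0.76 and that of replication 0.41. Markers of several cell types differed in CLP+DCA replicate 3, the liver with the lowest mitotic sum of its group. In order of replicate number, lymphocyte markers summed to 3.70, 3.36, 1.30 and 2.74 CPM in CLP+DCA, and Kupffer cell and macrophage markers to 465, 468, 234 and 248 CPM. Hepatocyte markers summed to 62238, 59692, 33728 and 68586 CPM, and neutrophil markers to 1632, 1774, 9633 and 929 CPM. Cholangiocyte markers summed to 49.0, 66.2, 213 and 38.4 CPM, and stellate cell markers to 108, 109, 266 and 103 CPM. Markers of erythroid precursors (108 CPM) and sinusoidal endothelium (184 CPM) in replicate 3 lay within the range of its group. The part of these cells in the differences was not tested.

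Of the 7 genes, 3 act in replication and 4 in mitosis. Pcna had a log2 fold change of 0.31 (SE 0.11, adjusted p = 0.400), Rrm1 of 0.34 and Rrm2 of 0.52 (SE 0.15 and 0.23). Rrm2 had 1.27, 1.82, 1.96 and 1.98 CPM in CLP and 2.20, 3.13, 2.46 and 2.26 CPM in CLP+DCA, and sham, at 1.31 to 2.66 CPM, overlapped both. Kif23, a kinesin of the central spindle and of cytokinesis, had the largest log2 fold change of this comparison among the 30, with 0.521, 0.149, 0.507 and 0.164 CPM in sham, 0.115, 0.287, 0.266 and 0.180 CPM in CLP, and 0.479, 1.21, 0.244 and 0.573 CPM in CLP+DCA.

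CLP+DCA replicate 2 was the highest liver for Kif23, and replicate 3 lay within the CLP range, at a log2 fold change of 1.56 (SE 0.58, adjusted p = 0.416) on 4 to 36 reads per mouse. Birc5, the survivin of the chromosomal passenger complex, was at 0.67 (SE 0.25, adjusted p = 0.422). Cyclins B2 and A2 (Ccnb2 and Ccna2) were at 0.82 (SE 0.37) and 0.75 (SE 0.33), and exons of Ccna2 share 12.5% of their bases with Exosc9. Mki67, at 1.24 (SE 0.62, adjusted p = 0.529), came to 0.59 without CLP+DCA replicate 2 and to 1.58 without replicate 3. Cdk1 was at 0.81 (SE 0.44) and Top2a at 0.76 (SE 0.59). The G1 and G1/S regulators lay between 0.25 (Ccnd1) and 0.45 (E2f1).

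Against sham, replication transcripts of the livers with DCA lay near the sham level and most mitotic ones at higher means. In CLP+DCA versus sham, 21 of the 30 were higher and 9 lower, with medians of 0.04 over replication genes and 0.41 over genes of G2 and mitosis, beside 0.01 over all genes. EdgeR called 0 of the 30, where 0.0379% of all genes were called, DESeq2 on all 12 mice called 0 (1.83% of all genes), and voom called Ccna2 alone (3.59% of all genes). Without adjustment, 3 were higher (Ccne1, Ccne2 and Ccna2, background 8.14%) and 1 lower (Ccnd1, background 4.85%). The comparisons share their sham or CLP mice, so that they are not independent of one another, and the difference between CLP and CLP+DCA is the one tested directly above.

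The 10 members that did not pass the filter had 0 to 33 reads per mouse and were left out of the edgeR fit above. They are Cdc6 (2 to 19 reads), which licenses origins, the cyclin Ccnb1 (0 to 11) and the anaphase activator Cdc20 (2 to 15), the checkpoint kinase Bub1 (0 to 14), the mitotic kinases Aurkb (0 to 33) and Plk1 (1 to 14), the kinetochore genes Cenpe (1 to 21) and Cenpf (0 to 7), the ubiquitin carrier Ube2c (0 to 15) and the motility receptor Hmmr (0 to 8). In CPM, CLP+DCA replicate 2 was the highest liver for 9 of the 10, the exception being Cdc20, and Aurkb stood at 1.11 CPM there against 0 to 0.193 CPM in the other 11 livers. In edgeR without a filter 0 of the 10 were called at an FDR of 0.05, and at unadjusted p under 0.05 3 were higher in CLP+DCA versus CLP (Bub1, Cenpe and Cenpf, where 3.86% of all genes were), 2 in CLP+DCA versus sham (Bub1 and Cenpf, 6.15%) and 0 in CLP versus sham, with 0 lower in each. Of the other genes of G2 and mitosis that passed, Birc5, Bub1b, Ccna2, Kif11, Kif20a, Tpx2 and Prc1 had log2 fold changes between -0.30 (Kif20a) and 0.19 (Ccna2) in CLP versus sham and Ccnb2 one of -0.69, all with overlap between the groups. Annotated exons of Kif20a share 29.3% of their bases with Cdc23 on the other strand, those of Ube2c 22.8% with Tnnc2 and those of Prc1 11.1% with Rccd1. Their values are thus uncertain too.

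In the wider pathway, edgeR called 1 replication gene lower, and 1 replication gene and 1 repressor higher, in CLP versus sham. Of all genes it called 2.78%, so these calls of single genes are not read as a change of the pathway. Of 46 other replication genes that passed the filter, edgeR called 1 higher and 1 lower in CLP versus sham (2.78% of all genes called), with 14 higher and 32 lower in sign and a median of -0.20. Pola1, the catalytic subunit of DNA polymerase alpha, fell from 3.31, 3.32, 2.66 and 4.35 CPM in sham to 1.54, 1.96, 2.03 and 1.84 CPM in CLP (log2 fold change -0.89, SE 0.20, adjusted p = 0.0452). Timeless, of the fork protection complex, rose from 5.16 to 6.54 CPM in sham to 7.35 to 8.76 CPM in CLP (log2 fold change 0.46, SE 0.11, adjusted p = 0.0478), and neither gene's groups overlapped. DESeq2 on all 12 mice called 5 of these genes, with Pola1 and Timeless among them, where it called 13% of all genes.

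Of 24 other mitotic genes that passed, 0 were called by edgeR, 4 were lower and 0 higher at unadjusted p under 0.05 (13.1% and 15.5% of all genes), and the median was -0.15. DESeq2 on all 12 mice called 2 and voom 4, all lower (13% and 25.9% of all genes called in either direction). Those with the smallest p were Lmnb1, a nuclear lamin (log2 fold change -0.95, adjusted p = 0.0901), and the kinetochore gene Spc24 (-1.79, adjusted p = 0.0937). Among 13 other cyclins and cyclin-dependent kinases, 0 were called by edgeR, and 2 were higher and 2 lower at unadjusted p under 0.05 (15.5% and 13.1% of all genes), while DESeq2 on all 12 mice called Ccnf and voom called 4 (13% and 25.9% of all genes). Ccnf, which marks proteins for breakdown in G2, was at 0.82 (adjusted p = 0.0523) and Ccnh, of the CDK-activating kinase, at -0.45 (adjusted p = 0.123).

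Of 20 inhibitors and repressors of the cycle that passed, 1 rose at the FDR and 0 fell, where 2.78% of all genes were called. At unadjusted p under 0.05, 4 were higher and 1 lower, beside 15.5% and 13.1% of all genes. Rbl1 (p107), a pocket protein that holds E2F genes silent, rose from 1.08, 0.792, 1.17 and 1.26 CPM in sham to 1.87, 2.68, 1.55 and 2.83 CPM in CLP, without overlap (log2 fold change 1.04, SE 0.23, adjusted p = 0.0432). With 1 mouse left out, Rbl1, Pola1 and Timeless each kept direction in all 12 fits and passed the FDR in 3, those without CLP replicate 3, CLP+DCA replicate 3 or CLP+DCA replicate 4. Wee1, the kinase that restrains Cdk1, was at -2.36 (SE 0.57, adjusted p = 0.0503), with 7.0 to 15.5 CPM in sham and 0.910 to 4.16 CPM in CLP. Cdkn1a, which encodes the CDK inhibitor p21, had 0.569 to 0.821 CPM in sham, 5.14, 108.3, 13.8 and 30.3 CPM in CLP, and 2.59, 8.17, 147.0 and 1.15 CPM in CLP+DCA, at a log2 fold change of 5.87 in CLP versus sham (SE 1.65, adjusted p = 0.0685 from edgeR). DESeq2 on all 12 mice called Cdkn1a, Rbl1 and Wee1 of the 20 (13% of all genes). The highest values of Cdkn1a were in CLP replicate 2, CLP+DCA replicate 3 and CLP replicate 4, the 3 livers that were lowest for E2f1 and Tk1, which is given as values and not as a test.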

How the data were processed

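The authors made poly(A)-enriched libraries (TruSeq v2), sequenced 100 bp paired ends, aligned the reads to mm10 with STAR 2.5 and counted them with featureCounts (Subread 1.5.0-p1). The deposited table holds unnormalized read counts of 25611 genes, and the gene annotation and strand setting are not given in the sources used here. Each mouse is 1 replicate of its labelled group. No unmapped columns of values were found.

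Counts were filtered with filterByExpr (minimum count 10), normalized by TMM and fitted with edgeR 4.0.16 in R 4.3.3 (robust quasi-likelihood, all 12 mice), with Benjamini-Hochberg adjustment over 13190 genes at an FDR of 0.05. SE is the log2 fold change divided by the square root of F. Alternatives were DESeq2 1.42.0, voom with sample quality weights (limma 3.58.1), edgeR on the 8 mice compared or without robust estimation, other normalizations and filters, a replicate block, other thresholds and leaving out each mouse. The fits were tested on simulated data. Exon lengths and overlaps came from GENCODE M21 (GRCm38).

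The 40 genes, the lists and the tests were chosen with earlier results of these data known. Values per mouse are given for the 2 genes of each role with the smallest p in CLP versus sham, the 1 with the smallest in CLP+DCA versus CLP, and Mki67, Top2a, Pcna, Ccnd1 and Cdk1. Of the other lists, called genes and the 2 with the smallest p are named. Any other gene given with values, such as Tk1, E2f1, Afmid, Aurkb, Rrm2, Mcm7 or Cdkn1a, was chosen after its values were seen. Reads carry no molecular identifiers, and counting alone understates the error.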

Additional observations from a re-analysis of the deposited data

Results flagged for a closer look

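Dixon's ratio (its 95% critical value for 4 samples) was applied to 57 groups of 4 mice. They covered the named genes, Tk1, E2f1, Aurkb, the sums and their ratio, and 5 had a liver far from the other 3. Chance gives about 1 in 20 for independent groups chosen beforehand. Tk1, E2f1 and Aurkb were added after their values were seen, and the sums contain single genes that were also tested. The 5 therefore cannot be set against that rate. Ccnd1 was 1.92 CPM in CLP+DCA replicate 3 against 6.04 to 6.13 CPM in the other 3 livers, and the summed CPM of the 4 G1 and G1/S regulators, which includes Ccnd1, was 8.56 there against 12.7 to 13.3. Aurkb was 1.11 CPM in CLP+DCA replicate 2 against 0 to 0.127 CPM. In sham, Top2a was 1.01 CPM in replicate 3 against 0.446 to 0.492 CPM, and Tk1 was 25.3 CPM in replicate 2 against 30.4 to 31.1 CPM.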

How the results depend on the processing

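Counts of called members depended on the fit. In CLP versus sham, edgeR on all 12 mice called 0. DESeq2 called 2 on all mice (13% of all genes called) and 5 on the 8 mice compared (23.3%). Voom called 6 (25.9%), edgeR on the 8 mice compared 4 of 28 (18.25%), and an FDR of 0.10 gave 2 of 30 (15.3%). With 1 mouse left out the count was 0 to 5. The 5 came without CLP+DCA replicate 3 (23.8%), and 1, Pcna, without CLP replicate 3 (7.46%). In CLP+DCA versus sham the count was 1 with voom (3.59% of all genes) and 0 to 0 with 1 mouse left out. In CLP+DCA versus CLP it was 5 with voom (9.76%) and 0 to 1 with 1 mouse left out. The 1 was Birc5 without CLP+DCA replicate 3 (4.64%). The cause was not tested. Over all settings, the replication median in CLP versus sham stayed between -0.47 and -0.24 and that of mitosis lay between -0.37 and 0.02. The positive value came with a filter of 1 CPM in every mouse of a group, which left only 2 mitotic genes. In CLP+DCA versus CLP the medians stayed between 0.28 and 0.49 and between 0.24 and 0.87, the 0.24 again from these 2 genes. In CLP+DCA versus sham they stayed between -0.04 and 0.13 and between 0.26 and 0.69. Of 470 log2 fold changes of named genes under other settings, 442 kept their direction and side of the threshold, 20 passed it and 8 changed sign. These were Ccne1 in CLP+DCA versus CLP (-0.035 with voom and -0.022 without CLP+DCA replicate 3), Mki67 in CLP versus sham (-0.13 with voom, -0.062 with library size alone, and -0.032, -0.14 and -0.43 without sham replicate 2, sham replicate 4 and CLP replicate 3) and Top2a in CLP versus sham (-0.20 without CLP replicate 3), none past the threshold in either direction. With 1 mouse left out, they ranged from -0.022 to 0.51 for Ccne1, from -0.43 to 0.45 for Mki67 and from -0.20 to 0.56 for Top2a. With the replicate number as a block, 0 members were called in each comparison (46, 0 and 4 genes in all). At unadjusted p under 0.05, 0 were higher and 3 lower in CLP versus sham (13.5% and 10.9% of all genes). In CLP+DCA versus sham 3 were higher and 1 lower (5.94% and 4.26%), and in CLP+DCA versus CLP 4 and 0 (3.71% and 4.35%). Deviations of mice with the same number correlated between -0.46 and 0.55. At most 2 of 4 mice of a group correlated best with their own number. With 4 mice in a group, these values cannot decide whether the number marks a shared batch or pairing. Reads per mouse were 6 to 35 for Nusap1 and 236 to 674 for Pcna.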
